A study of Mus musculus with 61 samples.

Results

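Pancreatic ductal organoids of C57BL/6 mice were compared at a late and an early passage, in cells sorted without the GFP reporter of Ngn3. Organoids had been infected with lentiviral vectors for GFP-Ngn3, LSSOrange-Pdx1 and tdTomato-MafA, all under doxycycline. The transgenes had been induced for 8 days before pools of 50 cells were sorted by fluorescence and sequenced. The samples were chosen by their labels as all those with no Ngn3 reporter whose condition was sampled at both passages. This gave 9 of the 32 samples of the series with a library past the criteria given below, and 17 of all 61 libraries. They fell into 3 conditions. Cells with tdTomato-MafA alone came from cultures given the phospho-mutant 6SANgn3 vector (MafA 6SA). Cells with tdTomato-MafA and LSSOrange-Pdx1 came from the same kind of culture (Pdx1-MafA 6SA), and cells with the same pair of reporters also came from cultures given the wild-type WTNgn3 vector (Pdx1-MafA WT). Each condition had replicate 1 and replicate 2 at passage 2 and replicate 3 at passage 5. Every sample was therefore doxycycline-treated and came from a culture exposed to an Ngn3 vector, and no uninfected cells were analysed here. All 3 samples at passage 5 carried replicate number 3, so that passage and culture cannot be told apart. Cells sorted by different reporters may come from the same culture where they share a number and the form of Ngn3. By the labels each replicate number spans 6SANgn3 and WTNgn3 cultures. Below, a passage 2 or passage 5 culture stands for all samples of a single replicate number.

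Duct organoids are grown from the ductal epithelium in a matrix rich in laminin and collagen, with Wnt agonists and growth factors that keep the cells dividing. Each passage breaks up the organoids and lets fragments grow again, so that a later passage has been through more cell divisions. Duct cells are marked by keratins, Sox9 and the chloride channel Cftr, and cells in division are marked by transcripts of the mitotic spindle and of the machinery that degrades cyclins, which are made late in the cell cycle and removed after it.

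Gene counts per sample ranged from 5439875 to 18286434 (median 7881654) after technical repeats were summed, and levels below are counts per 1000000 (CPM) after TMM scaling. Triplets of values are given in the order MafA 6SA, Pdx1-MafA 6SA, Pdx1-MafA WT. Every sample at passage 5 was 1 pool of 50 cells, while passage 2 samples held 50 to 150 cells in 1 to 3 pools. Detected genes numbered 14574 to 16678 at passage 5 and 16705 to 20093 at passage 2 after summing. In single pools of passage 2 they numbered 14228 to 17254, a range that overlaps passage 5. Spike-in RNA made up 0.105% to 0.396% of counts at passage 5 and 0.0501% to 0.0984% at passage 2. The spike-in share was the measure with the lowest p of 8 tested (two-sided exact permutation test within condition, 27 arrangements, p = 0.037, the smallest this design can give, and 0.198 after Benjamini-Hochberg adjustment over the 8). With whole replicate numbers exchanged, which allows 3 arrangements, the exact permutation p was 0.333. Replicate 1 stood apart as a whole. Each of its samples summed 3 pools and held 13332403 to 18286434 gene counts. Every other sample summed 1 or 2 pools and held 8862096 or fewer. Single pools of replicate 1 held 3265765 to 6595621 gene counts, so its larger totals came with the number of pools. Mitochondrial counts were 3.97% to 5.46% of the total in replicate 1, against 7.43% to 9.97% in replicate 2 and 8.76% to 14.4% at passage 5. Reads that could belong to several genes were 4.93% to 5.51% in replicate 1 against 8.99% to 11.3% in the others. The MafA 6SA sample at passage 5 had the highest shares of mitochondrial and spike-in counts and the fewest detected genes. In bulk pools, fewer cells of a kind and less RNA per cell cannot be told apart.

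**Figure D1:**
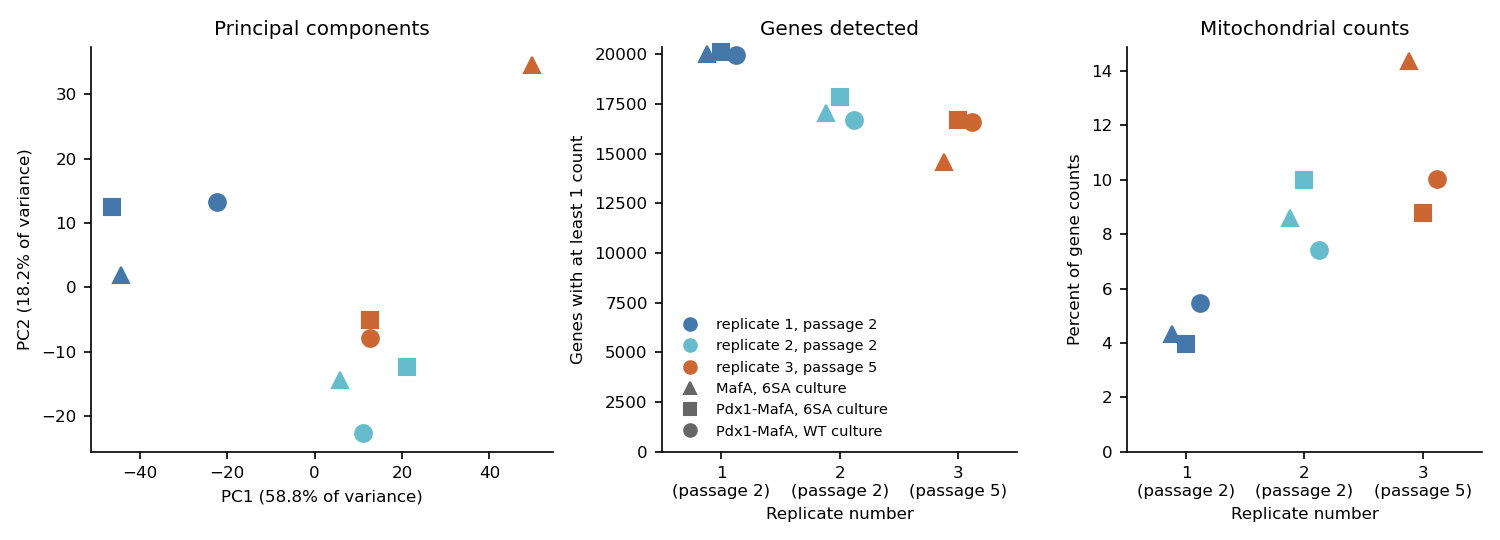
Left, the 9 samples on the first 2 principal components of log2 CPM, which hold 58.8% and 18.2% of the variance. Middle and right, the number of genes with at least 1 count and the percent of gene counts on mitochondrial genes in each sample, by replicate number. Colours are replicate numbers and shapes are conditions. Replicate 1 lies apart on the left, the passage 5 samples of both Pdx1-MafA conditions lie beside replicate 2, and the passage 5 sample of MafA 6SA lies alone.

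The labels were checked against the reporters' genes and the tissue. Neurog3, the gene of Ngn3, was at 0.638 CPM or lower in every sample. Pdx1, a factor of pancreas progenitors and beta cells, was at 16.6, 32.1 and 25.6 CPM in replicate 1, 9.91, 21.9 and 13.1 in replicate 2 and 3.79, 12.7 and 13.8 at passage 5. Mafa, a factor of mature beta cells, was at 0.2999, 0.415 and 0.275 CPM in replicate 1, 1.04, 1.29 and 0.159 in replicate 2 and 2.84, 0 and 3.86 at passage 5, although all samples were sorted for the tdTomato-MafA reporter. Whether the vectors' transcripts could be counted on these genes was not given in the sources used here, and none of the 3 passed between passages (edgeR, adjusted p = 0.41 or higher, 0 of 3 at an unadjusted p under 0.05, and 0 of the 2 with an adjusted p in DESeq2). All 20 duct genes were detected at both passages, with a summed level of 26546 to 63903 CPM at passage 5 and 21678 to 37747 CPM at passage 2. Of the markers of other cell types, 9 of 21 acinar, 7 of 10 immune, 3 of 6 endothelial and 2 of 12 mesenchymal genes had no count in any of the 9 samples. Ptprc, which marks white blood cells, and Cdh5, of endothelial junctions, were among those at 0. Xist was at 0.259 CPM or lower in all samples and the Y-linked genes Ddx3y, Eif2s3y, Kdm5d and Uty were at 10.8 CPM or higher in all, so that no replicate number differed from the others in sex.

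Passage 5 was first compared with passage 2 with the condition in the model (edgeR's quasi-likelihood test, adjusted p under 0.05). Of 24004 genes, 403 passed (1.68%), 108 of them higher (0.45%) and 295 lower (1.23%) at passage 5. This count rested on a fit in which all genes of like abundance shared one estimate of the spread. When edgeR's current default let the spread differ between genes, 0 passed (2353 at an unadjusted p under 0.05). Under a stricter filter on low counts, edgeR's filterByExpr, 0 passed (1626 at that level). With replicate number as a random replicate block in limma voom, 0 passed (1096 at that level). DESeq2 called 303 genes, 28 higher and 275 lower, of which 173 were among the 403. Regardless of the test, 502 genes (2.09%) had all 3 samples of passage 5 above all 6 of passage 2, and 664 (2.77%) had all 3 below. Only 50 of the 108 and 105 of the 295 were among these. Verbs of direction below refer to the 403 genes.

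The 3 replicate numbers were then compared in pairs in one fit. The pairs with replicate 3 were added after the passage result had been seen. Replicate 2 differed from replicate 1 at 1434 genes (5.97%), although both were at passage 2. The passage 5 culture differed from replicate 1 at 2308 genes (9.62%) and from replicate 2 at 219 (0.912%), of which 28 were higher and 191 lower. With the first technical repeat alone, 1 pool for each sample, replicates 2 and 1 differed at 1368 genes. With the stricter filter the counts of the 3 pairs were 815, 1194 and 3 of 14768 genes. The median size of the log2 difference over all genes was 0.829 between the passage 2 cultures, 0.970 between passage 5 and replicate 1 and 0.487 between passage 5 and replicate 2. The passage 5 samples were thus nearer to those of replicate 2 than replicates 1 and 2 were to each other. This held in counts of calls under both filters and in median size of difference. In the difference between replicates 2 and 1, the 5000 most expressed genes correlated between conditions with r of 0.587 to 0.803. For the difference between passages, r was 0.342 to 0.474 (description only, since the points are genes of the same libraries).

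Genes past the threshold against each passage 2 replicate number separately were fewer: 64 lower and 7 higher than both, and 14 between them. For 58 of the 64 and 4 of the 7, replicates 1 and 2 did not themselves differ by the test. Of the 64, 62 were also called in the comparison of passages and 47 lay below all 6 samples of passage 2. Both counts come from the same samples as the 64 and are a description. With the stricter filter, 2 of 14768 genes were lower than both and 0 were higher (2905 genes at an unadjusted p under 0.05 for passage 5 against the mean of both cultures, where 23 passed). Against that mean the balance of directions was turned, with 444 genes higher and 331 lower, or 19 and 4 with the stricter filter.

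**Figure D2:**
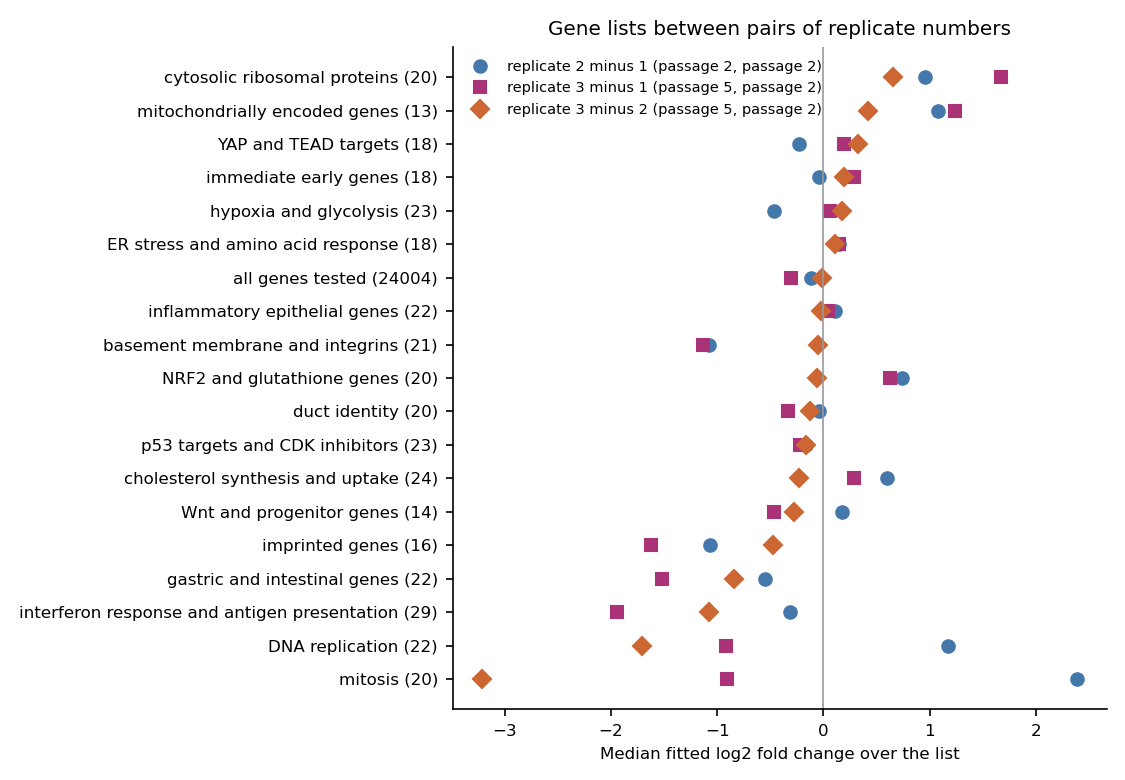
Median fitted log2 fold change of each gene list (number of genes tested in parentheses) for replicate 2 minus 1, both at passage 2 (circles), passage 5 minus replicate 1 (squares) and passage 5 minus replicate 2 (diamonds). Mitosis and DNA replication genes lie to the right between the passage 2 cultures and to the left for both differences of passage 5, with medians of 2.39, -0.91 and -3.21 for mitosis.

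Among genes that fell at passage 5, a group of mitosis genes was the most complete. Of 20 tested, 18 were lower and 0 higher, with a median log2 fold change of -2.68, against -0.27 over all genes tested. Their summed level was 155, 265 and 440.2 CPM in replicate 1, 542, 1919 and 3371 in replicate 2 and 73.7, 236 and 535 at passage 5. No gene of the 20 had all passage 5 samples below all passage 2 samples. Against replicate 2 all 20 were lower by the test of replicate pairs, against replicate 1 only 3 were (median -0.91), and replicate 2 itself exceeded replicate 1 at 18 of 20 (median 2.39). The 3 below replicate 1 were Cdc20, Cenpf and Tpx2. Without the MafA 6SA condition 13 of the 20 were lower, and the first technical repeat alone, which gives every sample 1 pool, left 17. DESeq2 called 8 of the 20 lower.

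The promoters of the named mitosis genes are shown because genes of this group are known to share short elements just before their start. The 120 bases before the start of each gene (RefSeq, GRCm38.p6) are printed 5′ to 3′ on the gene's strand for 5 of the 6 genes named, with CCAAT boxes and the TTTGAA core of cell cycle homology elements in capitals, on either strand (so that ATTGG and TTCAAA also mark them).
Ube2c, chr2:164769809-164769928, plus strand: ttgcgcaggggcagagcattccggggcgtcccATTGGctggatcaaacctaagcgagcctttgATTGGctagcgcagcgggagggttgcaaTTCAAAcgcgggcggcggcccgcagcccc
Cdc20, chr4:118437344-118437463, minus strand: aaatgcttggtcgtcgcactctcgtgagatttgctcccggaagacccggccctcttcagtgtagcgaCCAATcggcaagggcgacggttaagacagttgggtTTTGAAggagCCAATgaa
Cenpf, chr1:189688087-189688206, minus strand: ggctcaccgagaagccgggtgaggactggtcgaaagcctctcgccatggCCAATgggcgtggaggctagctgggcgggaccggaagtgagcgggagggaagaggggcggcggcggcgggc
Ccnb2, chr9:70421555-70421674, minus strand: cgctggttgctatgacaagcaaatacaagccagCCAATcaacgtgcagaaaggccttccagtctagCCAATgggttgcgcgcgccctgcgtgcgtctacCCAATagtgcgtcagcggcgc
Aurka, chr2:172370571-172370690, minus strand: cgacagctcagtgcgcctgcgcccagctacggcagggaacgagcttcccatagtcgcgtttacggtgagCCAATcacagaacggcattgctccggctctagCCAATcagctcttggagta
In the 250 bases before the start, 15 of the 17 mitosis genes with an entry held at least 1 CCAAT on either strand and 11 held at least 2, while 34.5% and 10.5% of 27025 promoters did. TTTGAA on either strand stood in 7 of the 17 and in 16.3% of all. These are matches of letters, given as a description.

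Ube2c, the ubiquitin-conjugating enzyme that works with the anaphase-promoting complex, was at 5.35, 11.99 and 39.5 CPM in replicate 1, 49.1, 202 and 322 in replicate 2 and 0, 9.71 and 41.02 at passage 5 (log2 fold change -3.37 ± 0.46 (SE), adjusted p = 7.29e-10, edgeR). Both passage 5 samples with Pdx1-MafA were close to replicate 1 of their condition, and the one with MafA alone had no count. Cdc20, which activates the same complex at anaphase, was at 8.996, 28.2 and 25.9 CPM in replicate 1, 23.4, 88.6 and 228 in replicate 2 and 1.42, 6.605 and 17.4 at passage 5 (log2 fold change -3.12 ± 0.48 (SE), adjusted p = 2.59e-07). It was lower at passage 5 than in either culture at passage 2. The log2 difference was -1.74 from replicate 1 (edgeR, adjusted p = 0.00388) and -3.73 from replicate 2 (adjusted p = 1.67e-07). Cenpf, a kinetochore protein, was at 4.898, 16.7 and 18.3 CPM in replicate 1, 19.98, 80.3 and 142 in replicate 2 and 0, 3.63 and 16.1 at passage 5 (log2 fold change -3.46 ± 0.55 (SE), adjusted p = 4.92e-07), and it too was below both cultures by the test of replicate pairs. Ccnb2, a cyclin of mitotic entry, was at 14.4, 25.3 and 27.9 CPM in replicate 1, 44.1, 143 and 249 in replicate 2 and 1.18, 14.4 and 30.9 at passage 5 (log2 fold change -2.83 ± 0.45 (SE), adjusted p = 4.92e-07). For each of these genes the passages overlapped, with replicate 1 low. Tpx2, which targets Aurora A to the spindle, had a log2 fold change of -3.04 ± 0.55 (SE, adjusted p = 2.84e-05, edgeR) and was below both. For Aurka, the kinase itself, it was -3.07 ± 0.56 (adjusted p = 4.46e-05). Birc5, the survivin subunit of the chromosomal passenger complex and a YAP target by its list, was at 1.95, 5.5 and 13.4 CPM in replicate 1, 17.02, 93.7 and 105 in replicate 2 and 0, 9.58 and 25.03 at passage 5 (log2 fold change -2.38 ± 0.53 (SE), adjusted p = 0.00199).

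DNA replication genes fell less completely. Of 22 tested, 8 were lower and 0 higher (median log2 fold change -1.32), with a summed level of 827, 576 and 883 CPM in replicate 1, 782, 1620.5 and 1970.2 in replicate 2 and 294, 708 and 504 at passage 5. By the median of the fitted differences replicate 2 was again above replicate 1 (median 1.17, 4 genes higher). Passage 5 was below both by that measure (medians -0.92 and -1.71, 6 and 8 genes lower). Not all summed levels had this order. In MafA 6SA replicate 2 was at 782 against 827 in replicate 1, and in Pdx1-MafA 6SA passage 5 was at 708 against 576 in replicate 1. Rrm1, the large subunit of ribonucleotide reductase, was at 55.3, 57.96 and 74.3 CPM in replicate 1, 79.6, 147 and 218 in replicate 2 and 4.97, 38.2 and 37.2 at passage 5 (log2 fold change -2.22 ± 0.42 (SE), adjusted p = 6.64e-05), and all passage 5 samples lay below all passage 2 samples. The same held for Cdc6, which loads the replicative helicase, at 3.398, 5.66 and 18.1 CPM in replicate 1, 14.4, 26.5 and 37.8 in replicate 2 and 1.66, 2.59 and 0.882 at passage 5 (log2 fold change -3.20 ± 0.71 (SE), adjusted p = 0.00199). Both genes were below each passage 2 culture by the test of replicate pairs. Mcm6 and Mcm4, subunits of that helicase, had log2 fold changes of -1.68 ± 0.40 and -1.61 ± 0.41 (SE, edgeR, adjusted p = 0.00595 and adjusted p = 0.0128) and were also below each culture. In Pdx1-MafA 6SA cells their passage 5 values of 92.6 and 63.2 CPM lay inside the range of passage 2. Rrm2, the small subunit of the reductase, and Prim1, the primase, also fell (adjusted p = 0.002 and adjusted p = 0.0277, edgeR). Without the MafA 6SA condition 3 of the 22 were lower, as were 3 in DESeq2. Chaf1a, a subunit of the chromatin assembly factor that follows the replication fork, was at 2.599, 1.45 and 9.41 CPM in replicate 1, 5.77, 22.02 and 27.6 in replicate 2 and 0, 0.647 and 1.21 at passage 5 (log2 fold change -4.33 ± 0.89 (SE), adjusted p = 0.00055).

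**Figure D3:**
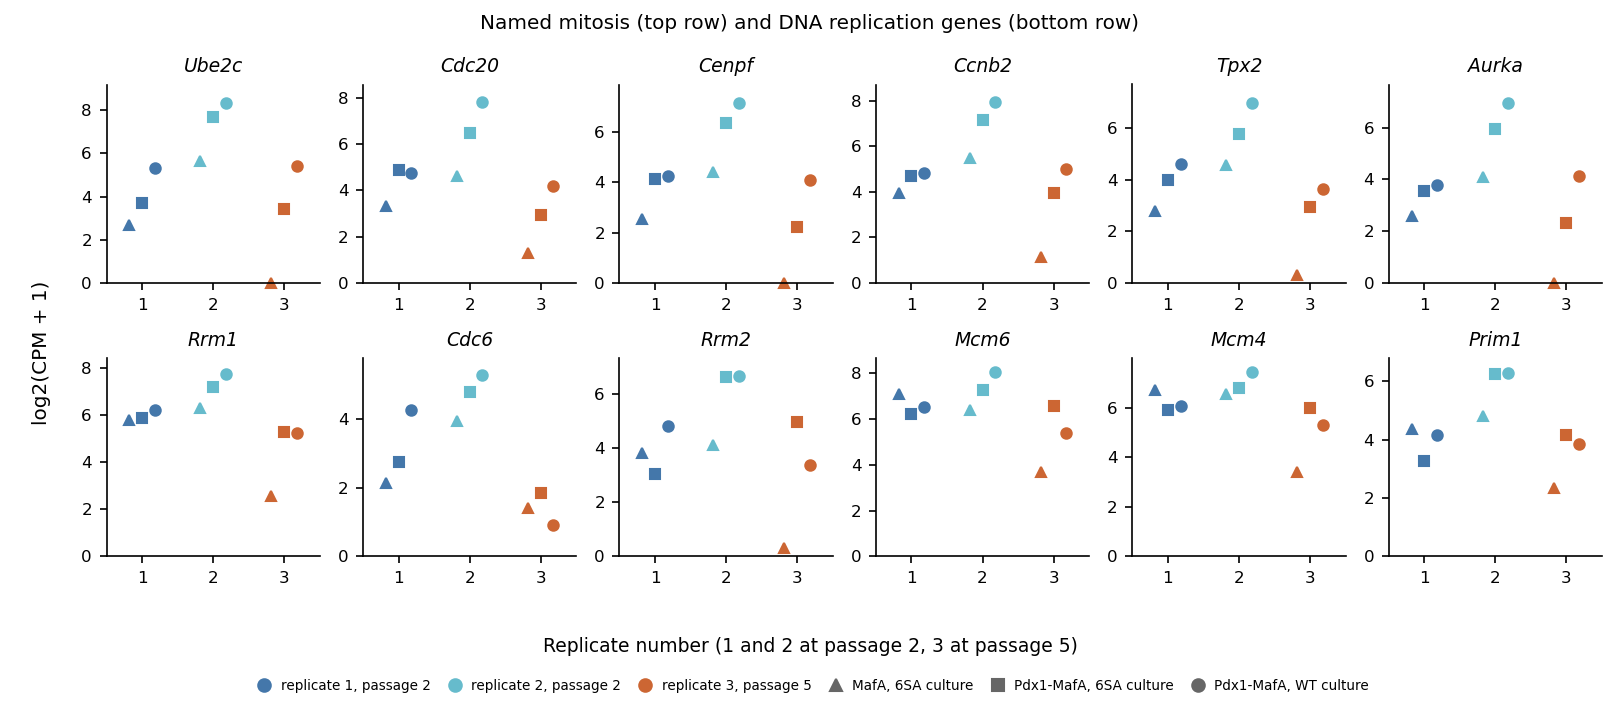
Level of 6 mitosis genes (top row) and 6 DNA replication genes (bottom row) as log2(CPM + 1) in each of the 9 samples, by replicate number. Colours are replicate numbers and shapes are conditions. For the mitosis genes replicate 2 is highest within each condition.

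The genes of this and the next paragraph were lower in all passage 5 samples than in every passage 2 sample. Most were picked by a rule that required it. Vim, the intermediate filament vimentin (ENSMUSG00000026728, chr2:13573927-13582826, GRCm38), was at 15.3, 49.1 and 32.9 CPM in replicate 1, 8.14, 8.75 and 8.45 in replicate 2 and 0, 1.81 and 0 at passage 5 (log2 fold change -5.62 ± 0.81 (SE), adjusted p = 2.16e-08, edgeR). The highest passage 5 value was below the lowest at passage 2, and Vim was below each passage 2 culture. The log2 difference was -6.00 from replicate 1 and -4.29 from replicate 2 (edgeR, adjusted p = 6.26e-07 and 0.000787). It was the one mesenchymal marker to pass among 8 tested (0 higher, 1 lower), and the summed level of those 8 was 7.28 to 15.6 CPM at passage 5 and 11.6 to 65.5 CPM at passage 2, with replicate 1 highest. Scara5, a scavenger receptor that takes up ferritin (ENSMUSG00000022032, chr14:65666403-65764826), was at 6.85, 9.39 and 14.8 CPM in replicate 1, 5.18, 4.12 and 15.1 in replicate 2 and 0, 0 and 0 at passage 5 (adjusted p = 3.62e-07, edgeR). With no count in any sample at passage 5, against the level of 3 counts per library it was at least 19.4-fold lower than the mean of passage 2. Stra6, the membrane receptor for the retinol-binding protein, was at 29.1, 22 and 40.05 CPM in replicate 1, 29.7, 30.0 and 54.2 in replicate 2 and 1.18, 9.71 and 2.98 at passage 5 (log2 fold change -3.05 ± 0.59 (SE), adjusted p = 0.000148). Its passage 2 values spanned 22.0 to 54.2 CPM, and replicates 1 and 2 did not differ by the test (log2 difference 0.28, adjusted p = 0.899).

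Pkp1, plakophilin of the desmosome, was at 20.99, 108 and 78.7 CPM in replicate 1, 12.6, 17.1 and 7.49 in replicate 2 and 1.18, 4.66 and 3.64 at passage 5 (log2 fold change -3.70 ± 0.57 (SE), adjusted p = 2.59e-07). Replicate 1 was above replicate 2, and passage 5 was below both. Rasd1, a Ras-related protein induced by dexamethasone, was at 4.198, 21.2 and 47.5 CPM in replicate 1, 9.03, 11.2 and 3.03 in replicate 2 and 0, 1.29 and 0 at passage 5 (log2 fold change -5.44 ± 0.88 (SE), adjusted p = 1.15e-06). Jrk, a nuclear DNA-binding protein, was at 24.3, 11.8 and 21.8 CPM in replicate 1, 7.25, 8.63 and 1.91 in replicate 2 and 1.42, 0.1295 and 0 at passage 5 (log2 fold change -5.22 ± 0.92 (SE), adjusted p = 1.44e-05). Ndrg4, of the NDRG family, had no count at passage 5 and 1.45 to 11.9 CPM at passage 2, whose mean was at least 10-fold above the level of 3 counts (adjusted p = 0.000527, edgeR). Cacnb3, a regulatory subunit of voltage-gated calcium channels, was at 63.2, 104 and 67.8 CPM in replicate 1, 56.8, 42.5 and 51.8 in replicate 2 and 6.63, 20.3 and 18.2 at passage 5 (log2 fold change -2.17 ± 0.45 (SE), adjusted p = 0.00055). Slco4a1, an organic anion transporter, had 3 counts in all at passage 5 and was at 1.12 to 20.1 CPM at passage 2 (adjusted p = 0.000381, edgeR). Snx25, a sorting nexin, was at 8.25, 6.64 and 6.46 CPM in replicate 1, 5.77, 9.78 and 8.61 in replicate 2 and 0.474, 0.647 and 0.441 at passage 5 (log2 fold change -3.84 ± 0.97 (SE), adjusted p = 0.0112), and was below both passage 2 cultures by the test. Of the 12 genes chosen as lowest in p with groups that do not overlap, 10 were below both passage 2 cultures by the test, Rrm1 and Chaf1a included. Lamb3 and Slco4a1 passed against replicate 1 alone. The rule that chose the 12 already placed them below passage 2 in these samples, so these counts are a description.

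**Figure D4:**
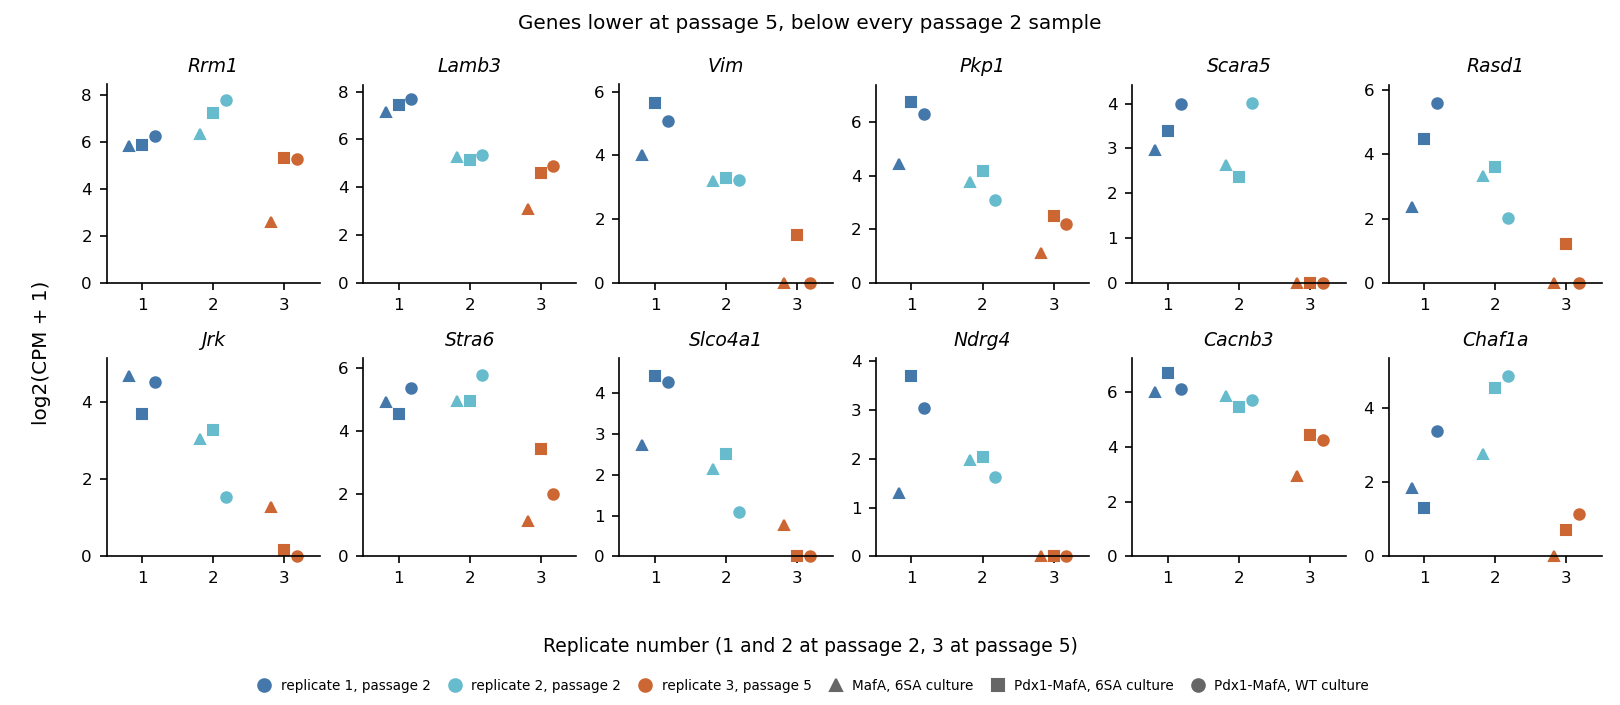
Level as log2(CPM + 1) in each sample, by replicate number, of the 12 genes with the lowest p among those lower at passage 5 with all passage 5 samples below all passage 2 samples. Colours are replicate numbers and shapes are conditions. Scara5 and Ndrg4 have no count at passage 5, and Lamb3 is far higher in replicate 1 than in replicate 2.

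Genes of the basement membrane, the sheet of laminin and collagen on which duct cells sit, and of the integrins that bind it were lower at passage 5 in 3 of 21 and higher in 0 (median -0.67). Lamb3 and Lama3, chains of the laminin of epithelial anchoring, and Col18a1 were the 3. Lamb3 was at 139.8, 171 and 204 CPM in replicate 1, 37.1, 34.8 and 40.0 in replicate 2 and 7.58, 23.3 and 28.7 at passage 5 (log2 fold change -2.52 ± 0.42 (SE), adjusted p = 2.97e-06, edgeR), and Col18a1 was at 212, 472 and 467 CPM in replicate 1, 51.8, 75.1 and 44.3 in replicate 2 and 52.8, 42.2 and 47.1 at passage 5 (log2 fold change -2.12 ± 0.39 (SE), adjusted p = 4.81e-05). Lama3 was at 15.5, 134 and 94.7 CPM in replicate 1, 15.7, 15.6 and 8.61 in replicate 2 and 0.237, 9.97 and 12.6 at passage 5 (log2 fold change -2.99 ± 0.52 (SE), adjusted p = 1.34e-05). In Pdx1-MafA cells the 3 genes were highest in replicate 1. Against replicate 1, 10 of the 21 were lower in replicate 2 and 10 at passage 5, and against replicate 2, 0 of 21 passed at passage 5 (median -0.05). Fosb, an immediate early gene that dissociation can induce, had the same order, at 657, 480.4 and 290.3 CPM in replicate 1, 236, 169 and 186 in replicate 2 and 116, 113 and 167 at passage 5 (log2 fold change -1.29 ± 0.37 (SE), adjusted p = 0.0339); it was the only one of 18 immediate early genes to pass.

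Of 22 gastric and intestinal genes tested, 5 were lower (1 in DESeq2) and 0 higher (median -1.73, or -0.71 over 20 genes with those at 3 counts or fewer in one passage set to their bound). Gkn3, a secreted gastrokine (ENSMUSG00000030048, chr6:87383256-87388935), was at 1.099, 27.03 and 74.5 CPM in replicate 1, 0, 13.9 and 149 in replicate 2 and 0, 0 and 0 at passage 5 (adjusted p = 2.68e-18, edgeR), at least 92.8-fold below the mean of passage 2. It was below both passage 2 cultures by the test of replicate pairs. The MafA 6SA cells were low in it at passage 2 as well, at 1.10 and 0 CPM. Reg3b and Reg3g, antimicrobial lectins, both varied with the replicate number. Reg3b was at 27.1, 6.28 and 64.2 CPM in replicate 1, 191, 813 and 113 in replicate 2 and 17.5, 90.8 and 53.4 at passage 5. Reg3g was at 5.897, 1.45 and 14.9 CPM in replicate 1, 192, 122 and 115 in replicate 2 and 0.711, 13.5 and 62.4 at passage 5. They were lower in the comparison of passages (adjusted p = 0.00167 and adjusted p = 0.00425), but they were high in replicate 2 alone, and without that replicate their log2 fold changes turned to 0.74 and 1.25, short of the threshold. Agr2, a disulfide isomerase of mucin-making cells, was at 0.05, 5.81 and 19.1 CPM in replicate 1, 10.5, 5.28 and 25.8 in replicate 2 and 0, 2.85 and 1.65 at passage 5 (log2 fold change -2.81 ± 0.83 (SE), adjusted p = 0.0459). Muc2, an intestinal mucin, had no count at passage 5 (adjusted p = 0.0488, edgeR). It was at 7.60, 3.11 and 0.756 CPM in replicate 1 and 0, 0.773 and 0 in replicate 2, against which passage 5 did not pass (edgeR, adjusted p = 0.801).

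Interferon response and antigen presentation genes were lower in 4 of 29 and higher in 0 (median -1.80, or -0.65 with genes at their bound). Their summed level was not lower, at 1827 to 3447 CPM at passage 5 and 1369 to 2279 CPM at passage 2. With the first technical repeat alone 1 of the 29 was lower. Ifit2, which blocks translation of viral RNA, was at 4.498, 2.59 and 2.13 CPM in replicate 1, 2.81, 12.1 and 7.49 in replicate 2 and 0, 0.647 and 0 at passage 5 (log2 fold change -4.96 ± 1.23 (SE), adjusted p = 0.00945, edgeR) and was the one of the 4 with no overlap between passages. It was below both passage 2 cultures by the test of replicate pairs. Ifit1 and Ifit3 were carried by 1 sample, Pdx1-MafA 6SA in replicate 2, at 51.9 and 21.0 CPM, and were at 1.24 CPM or lower elsewhere. Ifi44 had no count at passage 5 and up to 3.37 CPM at passage 2 (adjusted p = 0.0404). Of 22 inflammatory genes, 1 was higher and 2 were lower. Saa3, an acute-phase protein, was at 8.65, 4.36 and 39.6 CPM in replicate 1, 47.6, 7.34 and 69.6 in replicate 2 and 8.29, 0.259 and 0.551 at passage 5 (log2 fold change -3.68 ± 0.67 (SE), adjusted p = 3.51e-05), below both passage 2 cultures. Il1a had 4 counts in all at passage 5 and reached 24.1 CPM at passage 2 (adjusted p = 0.0031). Lcn2, a siderophore-binding protein of inflamed epithelia, was at 5594, 2853 and 6786 CPM in replicate 1, 10318, 10252 and 13835 in replicate 2 and 30674, 13349 and 12038 at passage 5 (log2 fold change 1.12 ± 0.33 (SE), adjusted p = 0.0439), lowest in replicate 1. Without the MafA 6SA condition its log2 fold change was 0.63 and missed the threshold.

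Imprinted and endocrine genes are set beside the 1.23% of all genes tested that were lower. Of 16 imprinted genes tested, Ndn and Meg3 were lower (adjusted p = 0.0139 and adjusted p = 0.0321, edgeR), with Meg3 at 1 count in all at passage 5. Ndn, of the necdin family, was at 5.45, 17.6 and 29.2 CPM in replicate 1, 11.4, 4.38 and 0.797 in replicate 2 and 0, 6.22 and 0 at passage 5. Iapp, the islet amyloid peptide, was the only one of 23 endocrine genes to pass, at 0 CPM at passage 5 and 0.296 to 7.72 CPM at passage 2 (adjusted p = 0.0284). With the first technical repeat alone, 1 pool for each sample, Ndn, Meg3 and Iapp all missed the threshold (edgeR, adjusted p = 0.111, 0.127 and 0.299).

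In the comparison with condition and passage fewer genes rose than fell. Areg, amphiregulin, a ligand of the epidermal growth factor receptor (ENSMUSG00000029378, chr5:91139599-91148432), was at 8.35, 8.51 and 20.7 CPM in replicate 1, 59.2, 79.7 and 39.05 in replicate 2 and 368, 143 and 97.8 at passage 5 (log2 fold change 2.36 ± 0.36 (SE), adjusted p = 1.35e-07, edgeR). All passage 5 samples were above all passage 2 samples, and passage 5 was above replicate 1 by 3.88 and above replicate 2 by 1.67 on the log2 scale (adjusted p = 3.88e-08 and 0.0234). Eif4ebp1, the repressor of cap-dependent translation that mTOR inactivates, was at 31.9, 39.1 and 67.6 CPM in replicate 1, 64.1, 90.4 and 78.7 in replicate 2 and 378, 125 and 157 at passage 5 (log2 fold change 1.76 ± 0.35 (SE), adjusted p = 0.000381) and was also above each passage 2 culture. Hspb1, a small heat shock protein, was at 0.6497, 0.363 and 1.65 CPM in replicate 1, 10.2, 10.04 and 4.94 in replicate 2 and 51.4, 23.3 and 27.8 at passage 5 (log2 fold change 2.88 ± 0.54 (SE), adjusted p = 6.05e-05). Chchd10, a mitochondrial intermembrane protein, was at 3.598, 1.14 and 8.38 CPM in replicate 1, 35.1, 86.4 and 69.2 in replicate 2 and 213, 107 and 99.8 at passage 5 (log2 fold change 2.14 ± 0.37 (SE), adjusted p = 1.34e-05). For these last 2 genes replicate 2 lay between replicate 1 and passage 5 and was above replicate 1 by the test (adjusted p = 0.000357 and 4.89e-08), while passage 5 did not pass against replicate 2 (adjusted p = 0.112 and 0.406). Slc7a3, a cationic amino acid transporter, was at 17.7, 18.3 and 14.7 CPM in replicate 1, 1.33, 0.258 and 16.7 in replicate 2 and 68.2, 49.7 and 27.01 at passage 5 (log2 fold change 2.10 ± 0.47 (SE), adjusted p = 0.00259), lowest in replicate 2 with 6SA. Ypel3 rose with 1.69 ± 0.37 (SE) on the log2 scale and Sub1, a transcriptional coactivator, with 1.36 ± 0.34 (adjusted p = 0.0019 and adjusted p = 0.0107). Without the MafA 6SA condition 17 genes were higher. Areg, Hspb1 and Ypel3 still passed then (log2 fold change 1.69, 2.65 and 1.83). Eif4ebp1, Chchd10, Slc7a3 and Sub1 missed the threshold (1.01, 1.32, 1.64 and 0.83). With all samples in DESeq2, only Areg and Eif4ebp1 of these genes passed (adjusted p = 0.0486 and 0.0271).

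Of the 20 ribosomal protein genes on the list, 7 were higher and 0 lower (median 1.14), and of all 108 genes higher at passage 5, 25 were ribosomal protein genes or pseudogenes by name (23.1%, against 1.17% of all genes tested). The summed level of the 20 was 4409.9, 3703 and 5570.3 CPM in replicate 1, 6923, 9802 and 8198 in replicate 2 and 19878, 9780.4 and 10079 at passage 5. Rps14 was at 128, 106 and 211 CPM in replicate 1, 175, 390.4 and 347 in replicate 2 and 1039.6, 409 and 428 at passage 5 (log2 fold change 1.47 ± 0.34 (SE), adjusted p = 0.00438, edgeR), above every passage 2 sample. Rps20, Rpl8, Rplp1, Rpl18 and Rpl14 rose by 1.18 to 1.27 on the log2 scale. Of the 12 genes chosen as highest, 4 were processed pseudogenes (Tpt1-ps3, Gm9396, Gm15427 and Rps10-ps1), which share reads with their parent genes and are uncertain. For each ribosomal gene named the MafA 6SA sample at passage 5 was highest, and without its condition 0 of the 20 passed (median 0.57), as in DESeq2 (median 1.18, 14 of the 20 at an unadjusted p under 0.05 in edgeR). Against replicate 1, 7 of the 20 were higher in replicate 2 and 16 at passage 5, and against replicate 2, 0 passed at passage 5 (median 0.66). The share of counts on mitochondrial genes, given above, moved in the same samples, and its part in these results was not tested.

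**Figure D5:**
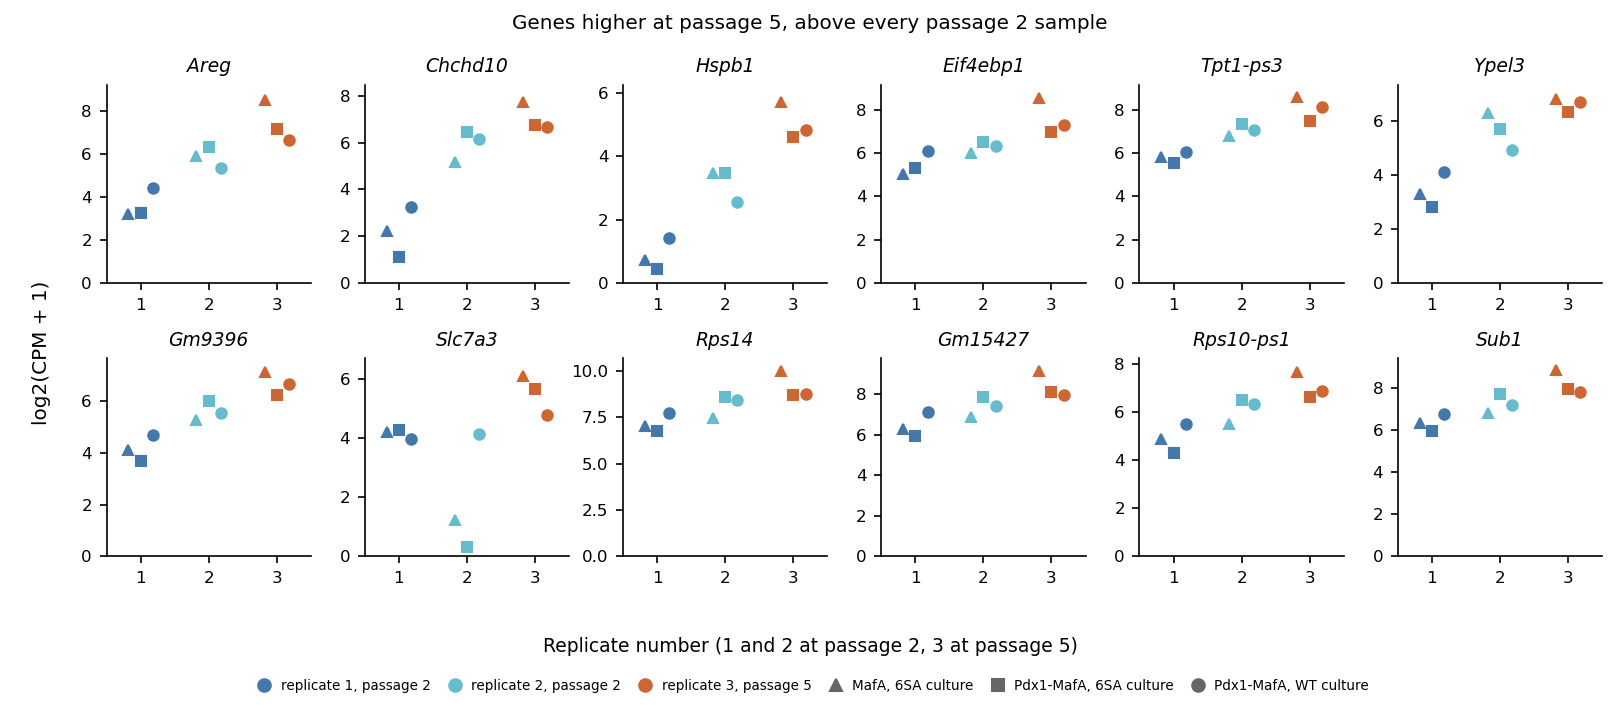
Level as log2(CPM + 1) in each sample, by replicate number, of the 12 genes with the lowest p among those higher at passage 5 with all passage 5 samples above all passage 2 samples. Colours are replicate numbers and shapes are conditions. Except for Slc7a3, within each condition replicate 1 is lowest and replicate 2 lies between it and passage 5 or close to passage 5.

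Of the duct identity genes, 2 of 20 were lower and 0 higher (median -0.31). Cftr was at 10.9, 4.15 and 16.97 CPM in replicate 1, 10.2, 11.8 and 46.7 in replicate 2 and 0.711, 4.53 and 2.65 at passage 5 (log2 fold change -2.48 ± 0.70 (SE), adjusted p = 0.033, edgeR), and Hes1, a target of Notch, was at 20.2, 20.03 and 16.8 CPM in replicate 1, 344, 146 and 170.2 in replicate 2 and 72.2, 16.8 and 60.98 at passage 5 (log2 fold change -1.35 ± 0.39 (SE), adjusted p = 0.0346). Hes1 was highest in replicate 2, and passage 5 lay between the passage 2 cultures. The log2 difference was 1.19 from replicate 1 and -2.19 from replicate 2 (edgeR, adjusted p = 0.0286 and 0.000261). Of 18 YAP and TEAD targets, Areg was higher and Birc5 lower (median 0.15). In 6 further lists 0 genes passed in edgeR and 0 in DESeq2. At an unadjusted p under 0.05, which 3011 of all genes reached (12.5%), there were 5 of 23 p53 targets and CDK inhibitors (median -0.14) and 4 of 14 Wnt and progenitor genes (median -0.59). There were also 3 of 18 genes of ER stress (median 0.28), 3 of 23 of hypoxia and glycolysis (median 0.11), 3 of 20 NRF2 and glutathione genes (median 0.15) and 4 of 13 mitochondrially encoded genes (median 0.81). Of the markers of other cells, 0 of 11 acinar, 0 of 3 immune and 0 of 5 endothelial genes passed in either tool, with 3, 1 and 0 at an unadjusted p under 0.05.

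Within MafA 6SA 1144 genes passed, within Pdx1-MafA 6SA 43 and within Pdx1-MafA WT 77 (edgeR, each with 1 sample at passage 5 and a spread taken from the 3 conditions together, so that the lone sample was assumed to vary like the others). The MafA 6SA sample at passage 5 is the one with 14.4% mitochondrial counts and 14574 detected genes, and the part of this in the counts was not tested. In the test of passage by condition 187 genes passed (0.779%), and with the stricter filter 0 did, with 972 at an unadjusted p under 0.05. Cxcl10, a chemokine induced by interferon, was at 2.899, 14.6 and 5.22 CPM in replicate 1, 0.592, 414 and 4.46 in replicate 2 and 101, 7.38 and 32.5 at passage 5 (passage by condition, edgeR, adjusted p = 6.89e-15). It was highest in one passage 2 sample, and in MafA 6SA cells it was high at passage 5 alone. Its fitted log2 fold change of 3.15 was positive while its mean CPM was higher at passage 2, the only 1 of the 403 genes for which these signs differed. Wfdc18, a secreted protease inhibitor, reached 94.3 CPM in MafA 6SA cells and 0.662 CPM in Pdx1-MafA WT cells at passage 5 (adjusted p = 1.4e-05). Dab2, an adaptor of endocytosis, was at 12.4, 1.505 and 1.099 CPM in replicate 1, 5.92, 1.16 and 2.07 in replicate 2 and 0, 38.98 and 0.221 at passage 5 (adjusted p = 2.91e-05).

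Cells sorted for the Ngn3 reporter, 15 samples of 5 other conditions, gave 1168 genes past the threshold between passages (4.87%). The difference between reporter-negative and Ngn3 cells passed at 0 genes in edgeR, with 1427 at an unadjusted p under 0.05, while DESeq2 called 150. For the 3 genes with the lowest p, the log2 fold changes in negative and in Ngn3 cells were 1.44 and -1.85 for Ero1lb, 2.16 and -3.66 for Tagln3, and -3.84 and -0.43 for Snx25. The adjusted p of the difference was 0.167 for each. Mitosis genes had a median of -2.68 in negative and -0.73 in Ngn3 cells, where 0 of 20 passed. For Areg the log2 fold change was 2.36 and 1.79, for Vim -5.62 and -1.08 and for Stra6 -3.05 and -2.91.

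Genes of one chromosome did not stand apart. Over 20 chromosomes, the median log2(CPM + 1) difference between passages, averaged over conditions, lay between -0.054 and -0.012 over all genes tested, and between -0.119 and -0.02 over genes with a mean above 10 CPM, where the median over all chromosomes was -0.075 (description only).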

How the data were processed

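RNA was sequenced from pools of 50 sorted cells (Smart-seq2, Nextera XT, single-end reads). The authors aligned reads with GSNAP and assigned them to Ensembl genes with HTSeq 0.5.3p3, and deposited raw counts per gene and library on the mm10 (GRCm38) genome. The extract protocol and the methods name different HiSeq models. Strand use in counting was not given in the sources used here, so overlapping genes are uncertain. Of 46078 genes, 45229 were matched to a symbol and position (GRCm38). Libraries needed over 1000000 gene counts, over 10000 detected genes and under 25% spike-ins. All 17 libraries passed, and technical repeats were summed. Genes detected in at least 5 libraries of the series with variance of log2(CPM + 1) above 0.001 were tested, which left 24004. The 5 summary rows of the table and 92 spike-ins stayed out of library sizes. Reads that met no gene were 6.42% to 16.0% and unaligned reads 16.3% to 27.9% of totals. A floor of 3 counts gave a limit of detection of 0.1499 to 0.7105 CPM per sample. It covers counting error only, as PCR copies of a molecule are counted too.

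Counts were fitted with edgeR 4.0.16 (TMM, quasi-likelihood, legacy setting) in R 4.3.3, with condition and passage, and Benjamini-Hochberg adjustment over all genes (threshold 0.05). Prior degrees of freedom were infinite in this fit and 10.1 without the legacy setting. Alternatives used DESeq2 1.42.0, limma 3.58.1 and other filters, scalings and sample sets, and the pairs with replicate 3 were added after seeing the data. Fits were also run on simulated data, and the outcome is not given here. The members and lists were chosen with earlier results of these data known. Named genes were the reprogramming factors, sex-linked genes, up to 6 members of each list with the lowest p among those past the threshold, the 12 higher and 12 lower with the lowest p among those with groups that do not overlap, and 3 for each interaction. Same-numbered samples deviated together (r from 0.587 to 0.803 between conditions for replicate 2 minus 1). This is a hint from the data that the number marks a shared batch across the 6SANgn3 and WTNgn3 cultures. Labels give separate replicate numbers but not separate animals, so p-values measure the spread between these samples, which may be technical. Some named genes are not reported here.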

Additional observations from a re-analysis of the deposited data

Results flagged for a closer look

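The genes Kdm5d, Ifit1 and Ifit3 had one sample far from the other 5 at passage 2 on the log2(CPM + 1) scale, among 81 measures examined, of which chance flags about 1 in 20. Kdm5d was at 3.57 in Pdx1-MafA WT of replicate 2, below the others. Ifit1 was at 5.72 and Ifit3 at 4.46 in Pdx1-MafA 6SA of replicate 2, above the others, and both genes passed in the comparison of passages.

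For 6 named genes the change with passage differed between conditions by the test of passage by condition (edgeR). The adjusted p was 6.89e-15 for Cxcl10, 1.4e-05 for Wfdc18, 2.91e-05 for Dab2, 2.94e-05 for Reg3g, 0.00855 for Ndn and 0.0123 for Ube2c. Reg3g was at 0.711, 13.5 and 62.4 CPM at passage 5. Ndn had a count in 1 of 3 samples at passage 5, Pdx1-MafA 6SA at 6.22 CPM. Ube2c was at 0 CPM in MafA 6SA cells at passage 5 and at 9.71 and 41.0 CPM in both Pdx1-MafA conditions. With the stricter filter 0 genes passed this test.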

How the results depend on the processing

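The count of 403 genes between passages stayed between 303 and 456 with DESeq2, RLE size factors, no gene filter and the first technical repeat alone (DESeq2 28 higher and 275 lower, RLE 154 and 302). It was 1256 with condition by passage cell means, 55 (0 higher) with all samples of the series in the fit, 32 with counts summed per replicate number, and 0 without the legacy setting and with filterByExpr. It was 164 without MafA 6SA, 229 without Pdx1-MafA 6SA and 86 without Pdx1-MafA WT. Leaving out replicate 1 or replicate 2 gave 239 to 1294. Leaving out replicate 3 leaves no passage 5 sample. A fixed replicate block cannot be fitted, since passage is nested in the replicate number, and with the number as a random replicate block (limma voom, correlation 0.24) 0 genes passed. The 187 genes of passage by condition became 69 with DESeq2, 102 with the first repeat and 0 with filterByExpr, and the 1434 of replicate 2 against 1 became 815 with filterByExpr. The difference from Ngn3 cells, 0 genes, became 150 with DESeq2 and 9 with the first repeat. Pairs with replicate 3 under filterByExpr gave 1194 against replicate 1, 3 against replicate 2 and 23 against the mean, from 2308, 219 and 775. Keeping all libraries changed nothing, since none of these was below the criteria. The lowest chromosome median moved from -0.054 to -0.119 over genes above 10 CPM.

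Of the 65 named genes past the threshold, 31 passed with DESeq2, 54 with the first repeat, 33 without replicate 1, 38 without replicate 2, 31 without MafA 6SA and 0 with filterByExpr, without the legacy setting or with the random block. Among those lost with the first repeat, Iapp, Meg3, Muc2, Ifi44, Ifit1, Ifit3 and Il1a had at most 3 counts in every passage 5 sample. Gkn3 and Vim passed in 13 of 16 alternatives, the most of any named gene. Without replicate 1 or without replicate 2, the log2 fold change ranged from -2.29 to 1.15 for Hes1, -2.59 to 0.74 for Reg3b and -3.39 to 1.25 for Reg3g, with the positive values, none past the threshold, without replicate 2. With the random block Reg3g was at 0.23 and Cxcl10 at -0.59, and summed per replicate number Cxcl10 was at -1.17. The causes were not tested. RLE scaling changed no direction of a named gene. Depth limits levels below 0.1499 to 0.7105 CPM, and 63 of the 403 genes had at most 3 counts in every passage 5 sample.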

Other observations

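Some genes that the rule did not name, chosen here after their values were seen, also differed from both passage 2 cultures. Bgn, the matrix proteoglycan biglycan, was higher at passage 5 than in each of them (edgeR, adjusted p = 0.00512 against replicate 1 and 7.26e-07 against replicate 2), at 50.4, 16.8 and 11.6 CPM in replicate 1, 8.29, 0.901 and 0.637 in replicate 2 and 26.1, 108 and 112 at passage 5. Tagln, a protein of the actin cytoskeleton, was at 2.15, 3.06 and 20.4 CPM in replicate 1, 1.92, 0.901 and 1.75 in replicate 2 and 82.9, 18 and 10.03 at passage 5 (adjusted p = 0.0449 and 0.000214). Ivl, involucrin of stratified epithelia, was at 10.8, 9.18 and 9.82 CPM in replicate 1, 6.66, 25.4 and 9.403 in replicate 2 and 38.8, 208 and 20.9 at passage 5 (adjusted p = 0.00049 and 0.00245). The passage 5 values of these 3 genes overlapped those of passage 2, and which condition was highest differed between them.

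Gp2, a membrane glycoprotein of secretory granules, followed the pattern of Gkn3, at 0.7497, 50.2 and 24.7 CPM in replicate 1, 0, 5.66 and 37.9 in replicate 2 and 0, 0 and 0 at passage 5 (adjusted p = 8.35e-08 and 1.73e-05). Ltf, lactotransferrin, was at 1081, 2169 and 625.4 CPM in replicate 1, 533, 803 and 1302 in replicate 2 and 300.1, 332 and 328 at passage 5, below every sample of passage 2 (adjusted p = 0.000139 and 0.0186). E2f1, a transcription factor of S-phase entry, was at 6.097, 4.15 and 7.28 CPM in replicate 1, 4.88, 12.9 and 7.97 in replicate 2 and 0, 1.17 and 0.551 at passage 5 (adjusted p = 0.00931 and 0.0182), and Cdk2, a kinase of the same step, was at 50.5, 46.96 and 36.96 CPM in replicate 1, 25.7, 45.1 and 68.9 in replicate 2 and 17.1, 15.02 and 8.82 at passage 5 (adjusted p = 0.00498 and 0.0244). Among genes between the passage 2 cultures, Igfbp7 was at 34.8, 45.2 and 142 CPM in replicate 1, 2267, 1127 and 754 in replicate 2 and 204, 148 and 390.1 at passage 5, and Bag1 was at 17.04, 13.8 and 25.2 CPM in replicate 1, 343, 375 and 317 in replicate 2 and 54.7, 58.3 and 76.9 at passage 5. Both were low in replicate 1, high in replicate 2 and between them at passage 5.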
